A study of Rattus norvegicus with 12 samples.

Results

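Gene expression was compared directly between RAH-6 and RAH-2, which are rat embryonic stem (ES) cell lines with a haploid, androgenetic genome, called RahES cells. The comparison was made of the 3 arrays titled RAH-6 and the 3 arrays titled RAH-2, which are 6 of the 12 arrays of the series. All 12 arrays came from the inbred Dark Agouti strain, and the other groups are the diploid ES cell line DA5-3 and freshly isolated round sperm cells, with 3 arrays each. The 3 ES cell lines were grown in N2B27-2i, a serum-free medium with inhibitors of the kinases MEK and GSK3, and were passaged every few days after dissociation with trypsin and chicken serum. RNA was extracted with Trizol and measured on the Affymetrix Rat Genome 230 2.0 array. The labels call the 3 arrays of a group biological replicates without saying how the cultures were separated, so p-values measure only the spread between these arrays. Each line is a single derivation, so what belongs to the line and what belongs to its culture history cannot be told apart. The share of cells that were still haploid at harvest was not given in the labels.

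An androgenetic haploid ES cell carries a single chromosome set of paternal origin, so that a gene has 1 allele and an imprinted gene has only the paternal one. Haploid ES lines are known to gain diploid cells in culture, and they are kept by repeated sorting for DNA content. In the 2i medium, blocking MEK holds back ERK signalling and blocking GSK3 activates the Wnt pathway, and rodent ES cells then stay in the naive pluripotent state. When oxygen falls or prolyl hydroxylases are inhibited, the hypoxia-inducible factor HIF accumulates and binds short elements with an ACGTG or GCGTG core near genes of glycolysis, vessel growth and stress adaptation.

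Replicate arrays were close to each other. Pearson r was taken over the 9324 genes tested below, on the log2 of the signal plus 16. It was 0.992 to 0.993 within RAH-6, 0.989 to 0.993 within RAH-2 and 0.979 to 0.986 between the lines, with no pair of arrays identical. A principal component that held 55.8% of the variance of the 6 arrays separated the lines, with scores of -12.1, -13.5 and -15.3 for RAH-6 and 17.9, 5.69 and 17.2 for RAH-2. RAH-2 replicate 2 thus lay apart from the other RAH-2 arrays and towards RAH-6. It also had the lowest score, -15.6, on the next component, which held 15.1% of the variance. With 16 added to each signal, 47 of 9324 genes were at least 2-fold higher on RAH-2 replicate 2 than on both other RAH-2 arrays, against 1 gene each for RAH-2 replicates 1 and 3 and 1, 2 and 5 genes for the RAH-6 arrays. The 3′ to 5′ signal ratio of the Gapdh control probe sets, a measure of RNA degradation, was 1.11 to 1.16 in RAH-6 and 1.23 to 1.30 in RAH-2. For the actin control probe sets the ratio was 2.94 to 3.28 in RAH-6 and 3.99 to 4.93 in RAH-2. Both ratios were lower on all RAH-6 arrays, with an exact two-sided permutation p of 0.1, the smallest that 3 against 3 arrays allow. The part of RNA quality in the results below was not tested.

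Signals are MAS5 signals on a linear scale, each array rescaled to a 2% trimmed mean of 500. Log2 fold changes are RAH-6 minus RAH-2 of the log2 of the signal plus 16, which understates changes of dim genes. A gene was tested where its signal reached 100 on at least 3 of the 9 ES cell arrays. It was called where limma gave a Benjamini-Hochberg adjusted p below 0.05 over all genes tested and the log2 fold change was at least 1 in size. DA5-3 entered the fit to share the estimate of the spread, and precision is limited by the number of arrays.

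Between the lines 75 of 9324 genes were called, 0.804%. RAH-6 was higher for 57 of them (0.611% of all genes tested) and lower for 18 (0.193%). Without the limit on size, 910 genes (9.76%) were higher and 859 genes (9.21%) were lower at an adjusted p below 0.05. The median log2 fold change of all genes tested was 0.01, and 90% of genes lay between -0.37 and 0.52. For 69 of the 75 called genes the 3 arrays of one line did not overlap the 3 of the other, against 41.2% of all genes tested. Of the 75, 8 were below 100 on all arrays of both lines and reached the test through DA5-3, and 22 were below 100 on all arrays of 1 line, so that their fold is a lower bound. For 19 of these 22 the bound exceeded 1. For the other 45, 33 higher and 12 lower, at least 1 array of each line reached 100, so no bound was set. Some of them, such as Gap43 and Pmp22, reached 100 in RAH-2 on replicate 2 only. Leaving out RAH-2 replicate 2 gave 110 higher and 15 lower genes, of which 67 were among the 75.

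**Figure D1:**
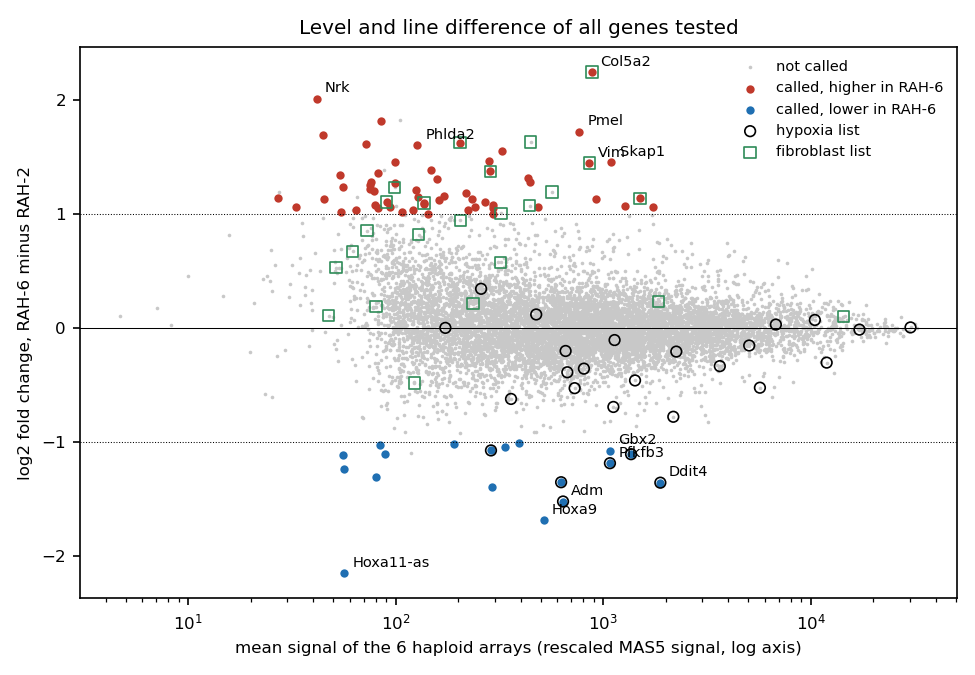
The x axis is the mean signal of the 6 haploid arrays on a log axis and the y axis the log2 fold change, RAH-6 minus RAH-2, for 9324 genes. Grey points are genes not called, red points the 57 genes called higher and blue points the 18 called lower in RAH-6, circles mark the hypoxia list and squares the fibroblast list, and dotted lines mark the size limit of 1.

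The called genes lower in RAH-6 held a group of hypoxia-response genes. Of 29 genes of a hypoxia list 27 were tested, and 6 of them, 22.2%, were called lower in RAH-6, against 0.193% of all genes tested. They were Adm, Ddit4, Ankrd37, Pfkfb3, Ero1a and Ak4. By adjusted p alone 17 of the 27, 63.0%, were lower, against 9.21% of all genes, and 1 was higher. The median log2 fold change of the list was -0.35. The 300 bases around the start of 3 of these genes are shown first, with the cores ACGTG and GCGTG, read on both strands, in capitals. They run 5′ to 3′ on the strand of the gene, from 250 bases before its RefSeq start to 50 after it, in the assembly GRCr8. Ankrd37 lies at chr16:53001257-53001556 (plus strand), Ddit4 at chr20:28436988-28437287 (minus strand) and Pfkfb3 at chr17:71944683-71944982 (plus strand).
Ankrd37: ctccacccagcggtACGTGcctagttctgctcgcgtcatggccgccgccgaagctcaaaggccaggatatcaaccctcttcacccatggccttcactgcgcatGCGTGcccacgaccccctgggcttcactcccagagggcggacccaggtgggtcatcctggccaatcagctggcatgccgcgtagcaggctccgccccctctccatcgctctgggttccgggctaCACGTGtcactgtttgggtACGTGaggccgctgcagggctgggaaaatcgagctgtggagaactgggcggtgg
Ddit4: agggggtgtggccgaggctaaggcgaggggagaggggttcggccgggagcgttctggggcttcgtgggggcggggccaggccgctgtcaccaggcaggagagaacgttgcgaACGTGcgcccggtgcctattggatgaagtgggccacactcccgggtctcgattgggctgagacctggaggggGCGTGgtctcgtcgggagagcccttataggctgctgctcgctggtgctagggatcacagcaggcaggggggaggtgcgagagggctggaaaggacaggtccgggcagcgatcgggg
Pfkfb3: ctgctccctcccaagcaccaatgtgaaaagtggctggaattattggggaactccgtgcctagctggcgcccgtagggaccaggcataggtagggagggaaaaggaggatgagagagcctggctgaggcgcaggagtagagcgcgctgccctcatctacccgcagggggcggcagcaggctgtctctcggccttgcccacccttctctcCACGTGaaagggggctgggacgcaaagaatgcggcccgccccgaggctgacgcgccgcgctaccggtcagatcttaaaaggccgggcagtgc
A core on one strand can overlap one on the other, as in CACGTG, and each was counted. Ankrd37 held 5 matches, Ddit4 held 2 and Pfkfb3 held 2, while the window of Adm at chr1:174179950-174180249 (plus strand) held 0 and that of Ak4 held 1. Among list genes not called, Ldha and P4ha2, which were not lower in RAH-6 by adjusted p alone, held 6 and 5. Bnip3 and Egln3, which were lower by adjusted p alone, held 4 and 0. No window of Ero1a or Ndrg1 was used here. At least 1 core was present in 4 of 5 windows of the called hypoxia genes and in 13 of 15 windows of the hypoxia genes lower by adjusted p alone. The same held for 18 of 25 windows (72%) of 23 hypoxia genes tested, 63.1% of 8706 windows of all genes tested and 41.6% of all 33469 windows. Of all genes called lower in RAH-6, 9 of 15 windows (60%) held a core, and of those called higher 18 of 45 (40%). A window without these letters says nothing about elements elsewhere.

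Adm encodes adrenomedullin, a secreted peptide that widens blood vessels. It read 329, 315 and 323 on the RAH-6 arrays and 851, 1049.5 and 973 on the RAH-2 arrays. The RAH-2 values all lay above the RAH-6 values (log2 fold change -1.52 ± 0.11 (SE), adjusted p = 9.77e-06), and DA5-3 read 67.5 to 77.5, below both. Ddit4, which restrains the growth kinase complex mTORC1 under stress, read 1138, 1001 and 1014 on the RAH-6 arrays and 2426, 2716 and 3010.2 on the RAH-2 arrays. Its groups did not overlap (log2 fold change -1.35 ± 0.10 (SE), adjusted p = 9.77e-06), and DA5-3 read 1399 to 1781. Pfkfb3, which makes the small molecule that drives phosphofructokinase and so glycolysis, read 641, 655 and 657 on the RAH-6 arrays and 1429, 1420 and 1661 on the RAH-2 arrays. All RAH-2 arrays again lay above all RAH-6 arrays (log2 fold change -1.18 ± 0.07 (SE), adjusted p = 7.43e-06).

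Ankrd37, an ankyrin repeat protein, read 357, 328 and 352 on the RAH-6 arrays and 892, 873 and 957 on the RAH-2 arrays (log2 fold change -1.35 ± 0.11 (SE), adjusted p = 1.71e-05). The DA5-3 arrays read 253 to 348, near the RAH-6 level. Ero1a, an oxidase of the endoplasmic reticulum that forms disulfide bonds, read 917, 743 and 922 on the RAH-6 arrays and 1772, 1934 and 1881 on the RAH-2 arrays (log2 fold change -1.10 ± 0.09 (SE), adjusted p = 1.38e-05). A dimmer probe set of Ero1a gave -0.13, and with the probe sets averaged Ero1a was no longer called. Ak4, a mitochondrial adenylate kinase, read 176, 196 and 167 on the RAH-6 arrays and 348, 442 and 398 on the RAH-2 arrays (log2 fold change -1.07 ± 0.14 (SE), adjusted p = 3.02e-04). Its call was lost without RAH-2 replicate 2, while the other 5 hypoxia genes kept theirs under each of the 9 settings that left out 1 array. With 16 added to each signal, no hypoxia gene was at least 2-fold higher on RAH-2 replicate 2 than on the other RAH-2 arrays.

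Members of the list that were lower by adjusted p alone had smaller differences. Ndrg1, a stress-induced protein, read 1586, 1616 and 1580 in RAH-6 against 2381, 3052 and 2838 in RAH-2 (log2 fold change -0.78). Egln1, one of the prolyl hydroxylases that mark HIF for destruction, read 769, 889 and 893 in RAH-6 against 1173, 1535 and 1455 in RAH-2 (-0.69), and its relative Egln3 gave -0.39. Bnip3, a receptor for removal of mitochondria, read 4760, 4614 and 4610.1 in RAH-6 against 6158, 6808 and 7168 in RAH-2 (-0.52). Neither line overlapped the other for these genes. Log2 fold changes of -0.62 for the repressor Bhlhe40, -0.53 for the collagen hydroxylase subunit P4ha1, -0.46 for the Myc antagonist Mxi1 and -0.30 for the glucose transporter Slc2a1 also passed the adjusted p alone.

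The same list held genes with nearly equal levels in both lines. Ldha, the lactate dehydrogenase subunit of glycolytic cells, read 16935, 17297 and 17001 in RAH-6 against 17342, 17651 and 16695 in RAH-2 (-0.01, adjusted p = 0.85). Pgk1, a glycolytic enzyme, gave 0.01, the glucose transporter Slc2a3 gave 0.07, the growth factor Vegfa gave -0.10 and the histone demethylase Kdm3a gave 0.03, and none passed the adjusted p. P4ha2, a second collagen hydroxylase subunit, was the member that was higher in RAH-6 by adjusted p alone (log2 fold change 0.35 ± 0.11 (SE), adjusted p = 0.0476). Of 20 glycolysis genes tested 0 were called, 5 (25%) were lower and 0 higher by limma's adjusted p alone, against 9.21% of all genes lower, and their median was -0.07. Slc16a3, which exports lactate, had the lowest value among them and read 1400.3, 1240 and 1499.6 in RAH-6 against 1768, 2434 and 2375 in RAH-2 (log2 fold change -0.65 ± 0.11 (SE), adjusted p = 0.00191).

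**Figure D2:**
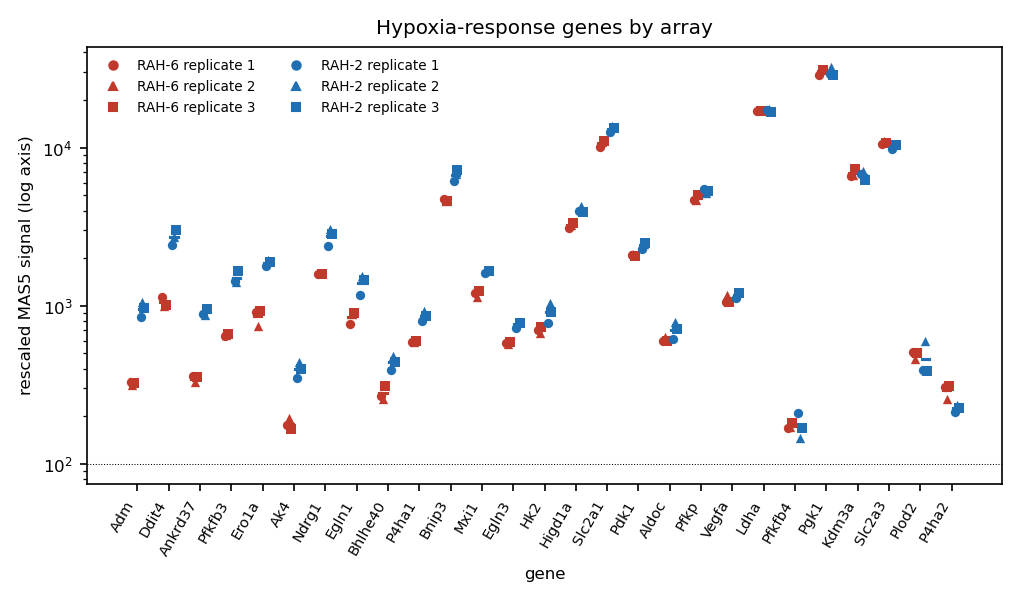
The y axis is the rescaled signal on a log axis and the x axis the 27 hypoxia-response genes tested, ordered by log2 fold change from the lowest to the highest. Points are single arrays (red RAH-6, blue RAH-2, shape by replicate), short lines are means and the dotted line marks 100, and the 6 genes at the left are those called lower in RAH-6.

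Genes of the Hoxa cluster were lower in RAH-6 as well. Hox genes encode homeobox transcription factors that give cells their position along the body axis, and they were looked at together after their values were seen. Hoxa9 read 248, 252 and 206 on the RAH-6 arrays and 916, 654 and 819 on the RAH-2 arrays. The groups did not overlap (log2 fold change -1.68 ± 0.12 (SE), adjusted p = 9.77e-06), the DA5-3 arrays lay between them at 375 to 417, and the call was kept in all 19 settings with the same size limit. Hoxa11-as, an RNA from the opposite strand of Hoxa11, read 3.37, 31.1 and 3.69 on the RAH-6 arrays and 91.9, 109.7 and 99.5 on the RAH-2 arrays. All RAH-6 arrays were below 100, and no fold beyond 1 is given (adjusted p = 6.84e-04). Hoxa7 read 62.6, 19.4 and 40.3 on the RAH-6 arrays and 119.6, 88.9 and 150.5 on the RAH-2 arrays, at least 1.17-fold lower in RAH-6 (adjusted p = 0.0107), and its call was lost without RAH-2 replicate 3. Hoxa11-as and Hoxa7 passed the filter only with DA5-3, which read 182 to 231 and 80.5 to 137. With the haploid arrays alone neither was tested.

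Hoxa10 read 345, 324 and 289 on the RAH-6 arrays and 588, 619 and 626 on the RAH-2 arrays. It did not overlap between lines but missed the size limit (log2 fold change -0.91 ± 0.09 (SE), adjusted p = 5.36e-05), and so did Hoxa11 (log2 fold change -0.92 ± 0.15 (SE), adjusted p = 0.00157), which read 127, 113 and 171 in RAH-6 against 282, 289 and 238 in RAH-2. Hoxa5 read 82, 68.8 and 79.3 in RAH-6 against 146, 123 and 156 in RAH-2 and was at least 1.41-fold lower in RAH-6 (adjusted p = 0.00821), without reaching the size limit. Of the 7 genes of this cluster with a probe set all were tested, and 6 were lower by adjusted p alone, as were 9.21% of all genes. The seventh, Hoxa3l1, read 158, 143 and 140.1 in RAH-6 against 148, 214 and 152 in RAH-2 and did not pass (log2 fold change -0.18 ± 0.16 (SE), adjusted p = 0.438). Of the other Hox clusters only Hoxd8 and Hoxd9 passed the filter on low signal, and neither passed the adjusted p. Hoxd8 read 317, 269.8 and 398 in RAH-6 against 309, 278 and 287 in RAH-2 and Hoxd9 79.2, 70.5 and 90.9 in RAH-6 against 64, 49.3 and 69.2 in RAH-2.

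**Figure D3:**
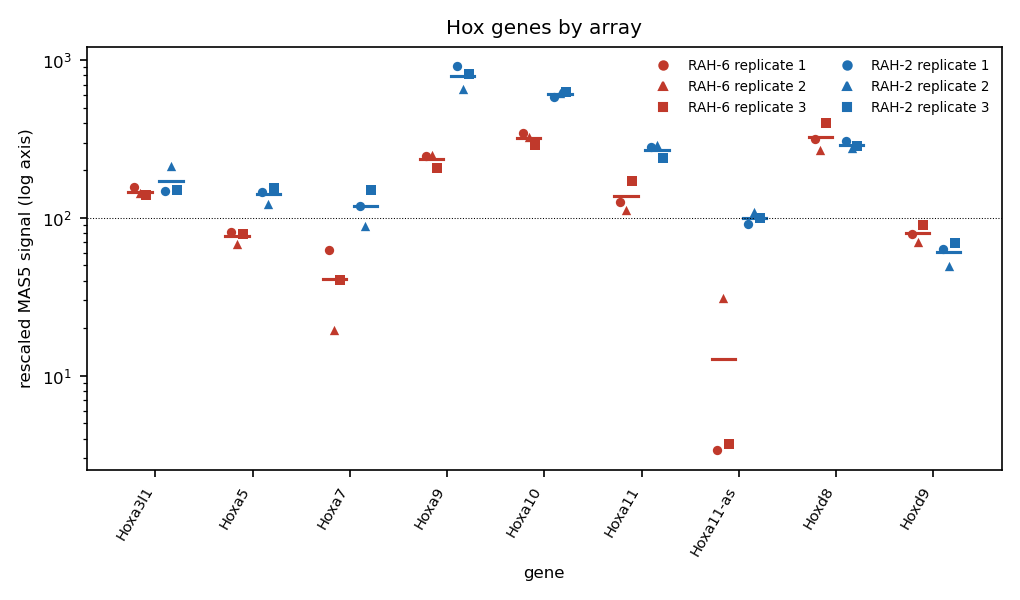
The y axis is the rescaled signal on a log axis and the x axis the 9 Hox genes tested. Points are single arrays (red RAH-6, blue RAH-2, shape by replicate), short lines are means and the dotted line marks 100, and the RAH-6 points lie below the RAH-2 points from Hoxa5 to Hoxa11-as.

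The remaining genes called lower in RAH-6 were of mixed function. Fgfbp3, a secreted carrier of fibroblast growth factors, read 192, 129.8 and 146 on the RAH-6 arrays and 440.3, 407 and 440.1 on the RAH-2 arrays, without overlap (log2 fold change -1.39 ± 0.14 (SE), adjusted p = 5.89e-05). Gbx2, a homeobox factor that supports self-renewal in mouse ES cells, read 713, 680.5 and 647 on the RAH-6 arrays and 1661, 1109.8 and 1644 on the RAH-2 arrays (log2 fold change -1.07 ± 0.13 (SE), adjusted p = 2.13e-04). RAH-2 replicate 2 was the lowest of the RAH-2 arrays, and the call of Gbx2 was lost without RAH-2 replicate 1 (-0.97) or without RAH-2 replicate 3 (-0.98). Grhl3, a transcription factor of surface epithelium, read 265, 273 and 231 in RAH-6 against 552, 548 and 491 in RAH-2 (log2 fold change -1.005 ± 0.15 (SE), adjusted p = 8.39e-04), with the call lost without RAH-6 replicate 3 or without RAH-2 replicate 1 or 2. Xylt2, which starts the sugar chains of proteoglycans, read 203, 239 and 203 in RAH-6 against 464, 444 and 469 in RAH-2 (log2 fold change -1.04 ± 0.13 (SE), adjusted p = 2.39e-04). Its other probe sets gave -0.61 and -0.53, and its call was lost with the probe sets averaged. Myb, a transcription factor of blood progenitors, read 66.7, 54.4 and 32.3 in RAH-6 against 154, 107 and 117 in RAH-2, at least 1.24-fold lower (adjusted p = 0.00972). Its call was lost without RAH-6 replicate 3, and without any 1 RAH-2 array it did not reach the filter and was not tested. Mtnap1, a mitochondrial nucleoid protein, read 34.9, 18.4 and 23.8 in RAH-6 against 114, 43 and 103 in RAH-2, with no fold beyond 1, and its call was lost without RAH-6 replicate 2 or 3. Without RAH-2 replicate 1 or 3, or DA5-3 replicate 2, Mtnap1 did not reach the filter and was not tested. Rflna, Fhit and Gba2 complete the 18.

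Among the 57 genes called higher in RAH-6, Pmel, Skap1, Irak3, Sh3gl3, Gsg1, Tmem140, S100g and Ccl5 kept their calls in all 19 settings. Pmel, which forms the fibres of the pigment organelle, read 1170.2, 1219.6 and 1153 on the RAH-6 arrays and 336, 398 and 309 on the RAH-2 arrays. The lines did not overlap (log2 fold change 1.73 ± 0.12 (SE), adjusted p = 9.77e-06), and DA5-3 read 76.7 to 102, below both. Gpnmb, a related membrane glycoprotein, read 305, 301 and 322 in RAH-6 against 133, 138 and 112 in RAH-2 (log2 fold change 1.18 ± 0.37 (SE), adjusted p = 0.0424), and its call was lost when any 1 of the 6 haploid arrays was left out. Skap1, an adaptor of T cell receptor signalling, read 1591, 1614 and 1631 on the RAH-6 arrays and 573, 602 and 555 on the RAH-2 arrays (log2 fold change 1.46 ± 0.11 (SE), adjusted p = 1.24e-05). Irak3, a brake on Toll-like receptor signalling, read 726, 624 and 560.5 in RAH-6 against 257, 214 and 288 in RAH-2 (log2 fold change 1.28 ± 0.14 (SE), adjusted p = 1.22e-04). For both genes DA5-3 lay below either haploid line, at 112 to 167 and 103 to 129.

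Sh3gl3, an endophilin of membrane traffic, read 516, 477 and 480.4 on the RAH-6 arrays and 139, 166 and 165 on the RAH-2 arrays (log2 fold change 1.56 ± 0.15 (SE), adjusted p = 4.72e-05). Gsg1, named for its germ cell expression, read 1634, 1803 and 1779 in RAH-6 against 794, 805 and 859 in RAH-2 (log2 fold change 1.07 ± 0.10 (SE), adjusted p = 4.43e-05), and its second probe set gave 1.02. Tmem140, a membrane protein, read 642, 636 and 592 in RAH-6 against 239, 273 and 213 in RAH-2 (log2 fold change 1.32 ± 0.13 (SE), adjusted p = 5.89e-05). None of the RAH-2 values of these 3 genes reached the lowest RAH-6 value. S100g, a calcium-binding protein, read 134, 139 and 150 on the RAH-6 arrays and 25, 33.9 and 26.9 on the RAH-2 arrays, at least 1.41-fold higher in RAH-6 (adjusted p = 1.71e-05), with DA5-3 at 431 to 442. Ccl5, a chemokine, read 218, 178 and 262 in RAH-6 against 43.5, 116 and 74.3 in RAH-2 (log2 fold change 1.39 ± 0.23 (SE), adjusted p = 0.00184).

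Other large rises were of dim genes. Nrk, a protein kinase, read 61.3, 89.8 and 78.4 on the RAH-6 arrays and 5.77, 7.84 and 6.53 on the RAH-2 arrays, and Hs3st1, which sulfates heparan sulfate, read 85.1, 78.4 and 56.4 in RAH-6 against 1.91, 43.2 and 3.1 in RAH-2. Both genes were below 100 on every haploid array, so no fold is given, and they entered the test through DA5-3, at 366 to 491 and 106 to 186. Neither passed the filter when any 1 DA5-3 array was left out, and the call of Hs3st1 was also lost without RAH-2 replicate 1 or 3. Sema3c, a secreted guidance cue, read 171, 159 and 131 in RAH-6 against 45.2, 43.2 and 48 in RAH-2, at least 1.53-fold higher, but it did not reach the filter, and was not tested, when any 1 RAH-6 array was left out. Art1, an ADP-ribosyltransferase, read 87.1, 115 and 145 in RAH-6 against 32.5, 41.6 and 11.3 in RAH-2, at least 1.13-fold higher. RAH-6 replicate 1 was itself below 100, and Art1 passed the filter only with DA5-3. Of the 75 called genes 56 would have passed the filter on the 6 haploid arrays alone, and 19 passed only with DA5-3.

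Markers of fibroblasts were the list with the highest median, and the RAH-2 arrays disagreed about them. Of 32 markers 24 were tested and 7, 29.2%, were called higher in RAH-6, against 0.611% of all genes tested. They were Col5a2, Mmp2, Vim, S100a4, Sparc, Tagln and Ccdc80. By adjusted p alone 9 (37.5%) were higher, against 9.76% of all genes, and 1 was lower. The median log2 fold change was 0.98, or 0.88 with genes below 100 at their bound. Fewer cells of a type and less RNA per cell cannot be told apart in such bulk samples. With 16 added to each signal, 14 of the 24 markers were at least 2-fold higher on RAH-2 replicate 2 than on both other RAH-2 arrays, and 0 did so on replicate 1 or replicate 3.

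Col5a2, a chain of fibrillar type V collagen, read 1319.8, 1405 and 1200 on the RAH-6 arrays and 97.9, 1117 and 151 on the RAH-2 arrays. RAH-2 replicates 1 and 3 were low and RAH-2 replicate 2 was near RAH-6, though below all of its arrays (log2 fold change 2.25 ± 0.58 (SE), adjusted p = 0.0183). Without RAH-2 replicate 2 the log2 fold change of Col5a2 was 3.26. Vim, the intermediate filament of mesenchymal cells, read 1269, 1112 and 1059 on the RAH-6 arrays and 198, 1231 and 271 on the RAH-2 arrays, so that the lines overlapped at RAH-2 replicate 2 (log2 fold change 1.45 ± 0.45 (SE), adjusted p = 0.0408). S100a4, a calcium-binding protein of motile cells, read 367, 368 and 425 in RAH-6 against 76.8, 398 and 80.4 in RAH-2, and its lines overlapped in the same way (log2 fold change 1.38 ± 0.41 (SE), adjusted p = 0.0357). Without RAH-2 replicate 2 the log2 fold change of Vim was 2.22, and S100a4, with the remaining RAH-2 arrays below 100, was at least 3.86-fold higher. All 3 calls were lost without RAH-2 replicate 1 or without RAH-2 replicate 3, those of Vim and S100a4 also without any 1 RAH-6 array, that of Col5a2 without RAH-6 replicate 1 or 2, and that of Vim without DA5-3 replicate 2.

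Col1a1, the main chain of type I collagen, read 392.4, 354 and 424 on the RAH-6 arrays and 89.2, 543 and 123 on the RAH-2 arrays. It was not called with all arrays (log2 fold change 1.01 ± 0.43 (SE), adjusted p = 0.12). RAH-2 replicate 2 exceeded every RAH-6 array, so that leaving it out widens the difference by itself. The log2 fold change of Col1a1 was 1.75 without that array. Mmp2, a secreted gelatinase, read 253, 315 and 336 in RAH-6 against 49, 214 and 54.9 in RAH-2, without overlap (log2 fold change 1.63 ± 0.35 (SE), adjusted p = 0.00788), while a dimmer probe set of it gave 0.08 and its call was lost with the probe sets averaged. Sparc, a matrix glycoprotein that is also made by endoderm, read 1929, 1991 and 2068 in RAH-6 against 604, 1747 and 679 in RAH-2 (log2 fold change 1.14 ± 0.28 (SE), adjusted p = 0.014). Ccdc80, a matrix protein, read 191, 206 and 153 in RAH-6 against 35.1, 167 and 68.7 in RAH-2 (log2 fold change 1.10 ± 0.32 (SE), adjusted p = 0.0332). The call of Sparc was lost with its probe sets averaged. The calls of Sparc and Ccdc80 were lost without RAH-2 replicate 1 or 3, and that of Ccdc80 also without any 1 RAH-6 array. Tagln, an actin-binding protein of smooth muscle, read 124, 200.4 and 72.4 in RAH-6 against 42.1, 50.6 and 53.2 in RAH-2, at least 1.22-fold higher in RAH-6, and here RAH-2 replicate 2 did not stand apart. The call of Tagln was lost without RAH-6 replicate 2 or without RAH-2 replicate 1. RAH-6 replicate 3 was itself below 100, and Tagln passed the filter only with DA5-3, which read 132 to 192.5.

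The number of fibroblast markers called higher was 15 of 24 without RAH-2 replicate 2, with a median of 1.33, or 0.78 with genes below 100 at their bound. That array held the highest RAH-2 value of most of these markers, so leaving it out widens their difference by itself. The number called higher was 1 without RAH-2 replicate 1, 2 without RAH-2 replicate 3, and 3, 2 and 4 without RAH-6 replicates 1, 2 and 3. The summed signal of the list was 25693 to 26566 in RAH-6, 17733 and 18348 on RAH-2 replicates 1 and 3, and 25607 on RAH-2 replicate 2. On the DA5-3 arrays the sum was 72127 to 77158. Fn1, fibronectin, made up a large part of each sum and read 14282, 15302 and 15023 in RAH-6 against 13693, 14081 and 13810.5 in RAH-2 (log2 fold change 0.10 ± 0.04 (SE), adjusted p = 0.0872). Of the list, 8 markers did not reach the filter, and on the haploid arrays Lum, Thy1, Pdgfrb, Twist2, Prrx1 and Lox reached at most 54.9, 43.2, 46.1, 41.3, 40.9 and 29.7.

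**Figure D4:**
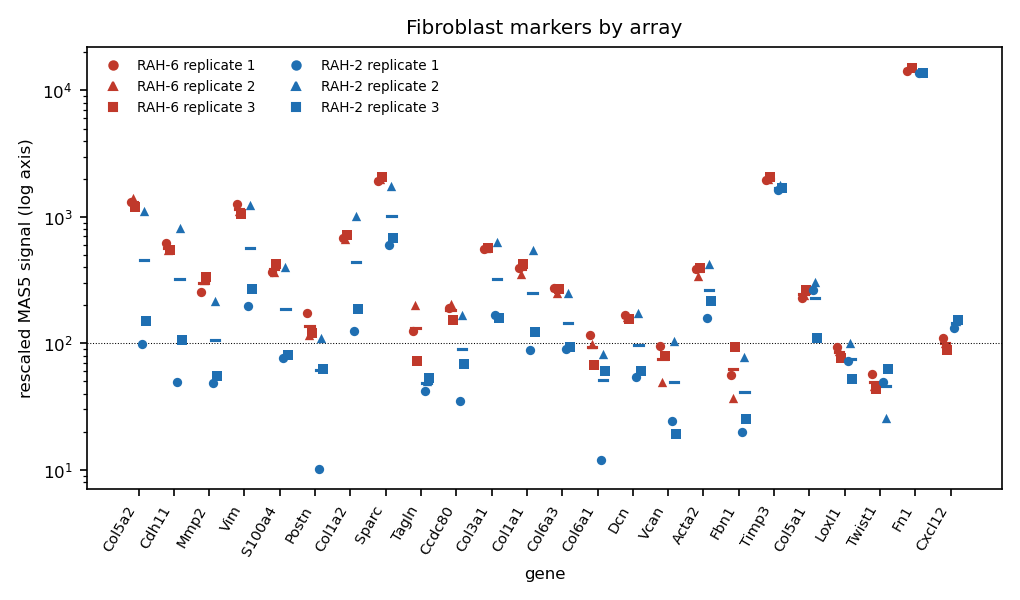
The y axis is the rescaled signal on a log axis and the x axis the 24 fibroblast markers tested, ordered by log2 fold change from the highest to the lowest. Points are single arrays (red RAH-6, blue RAH-2, shape by replicate), short lines are means and the dotted line marks 100, and the blue triangles of RAH-2 replicate 2 lie near the red points for most collagens, Cdh11, Vim and S100a4.

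Several other called genes followed the array pattern of the fibroblast markers. With 16 added to each signal, 10 of the 57 genes called higher (17.5%) were at least 2-fold higher on RAH-2 replicate 2 than on both other RAH-2 arrays, against 0.504% of all genes tested and 0 of the 18 called lower. Besides 6 of the fibroblast markers these were Hs3st1, Pmp22, Lgals1 and Gap43. Cryab, at 117 on RAH-2 replicate 2 against 58.2 and 53.6, lay just under 2-fold on that scale. Pmp22, a myelin protein also made by fibroblasts, read 404, 377 and 372 in RAH-6 against 68.7, 406 and 69.5 in RAH-2 (log2 fold change 1.46 ± 0.44 (SE), adjusted p = 0.0367). Lgals1, galectin 1, read 2380, 2387 and 2026 in RAH-6 against 717, 2018 and 847 in RAH-2 (log2 fold change 1.06 ± 0.27 (SE), adjusted p = 0.0158). Gap43, a growth cone protein, read 132, 99 and 95 in RAH-6 against 24.9, 103 and 15.6 in RAH-2 (log2 fold change 1.21 ± 0.37 (SE), adjusted p = 0.0369). It was the only called member of 10 neural markers tested (10%, against 0.611% of all genes), whose median was -0.04. Gap43 passed the filter only with DA5-3, which read 609 to 736. The calls of these 3 genes were lost without RAH-2 replicate 1 or without RAH-2 replicate 3, those of Pmp22 and Gap43 also without any 1 RAH-6 array, and that of Lgals1 without RAH-6 replicate 1 or 2.

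Genes tied to the actin cytoskeleton had mostly higher values in RAH-6. Of 19 targets of SRF and YAP, transcription regulators that respond to actin and cell shape, 2 (10.5%) were called higher, against 0.611% of all genes. By adjusted p alone 11 (57.9%) were higher, against 9.76% of all genes, and 0 were lower. The median was 0.35, or 0.28 with genes below 100 at their bound. Tpm2, a tropomyosin, read 188, 179 and 196 in RAH-6 against 48.3, 127 and 80 in RAH-2 (log2 fold change 1.09 ± 0.22 (SE), adjusted p = 0.00507), and its call was lost without RAH-2 replicate 1. Ccn2, a secreted YAP target, read 9168, 9222 and 9249.7 in RAH-6 against 5845, 6689 and 6078 in RAH-2 and did not reach the size limit (log2 fold change 0.57 ± 0.06 (SE), adjusted p = 5.37e-05). Tagln2, an actin-binding protein, read 5004, 5095 and 5189 in RAH-6 against 3595, 3773 and 3674 in RAH-2 (log2 fold change 0.47 ± 0.04 (SE), adjusted p = 4.72e-05). For Ccn2 and Tagln2 the lines did not overlap and RAH-2 replicate 2 lay close to the other RAH-2 arrays. For Tpm2 that array was the highest of its line. Tagln, the other called member, is also one of the fibroblast markers above.

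Extraembryonic endoderm, an early lineage that ES cultures can give rise to, had 19 of 29 markers tested. Sparc was the member called (5.26%, against 0.611% of all genes). By adjusted p alone 10 (52.6%) were higher, against 9.76% of all genes, 0 were lower, and the median was 0.36. Sox7, a transcription factor of this lineage, read 313, 300.5 and 315 in RAH-6 against 170.2, 154 and 133 in RAH-2 (log2 fold change 0.96 ± 0.14 (SE), adjusted p = 6.84e-04). Apoa2, an apolipoprotein, read 478, 499 and 476 in RAH-6 against 247, 243 and 283 in RAH-2 (log2 fold change 0.87 ± 0.14 (SE), adjusted p = 0.00121). Apoe read 8935, 9349.6 and 9448 in RAH-6 against 7442, 7479 and 6846 in RAH-2 (log2 fold change 0.35 ± 0.05 (SE), adjusted p = 3.88e-04). In all 3 of these genes every RAH-6 array exceeded every RAH-2 array. Gata6 read only 118, 80.5 and 126 in RAH-6 against 77, 63.4 and 43.3 in RAH-2, and Afp, Apoa1 and Rbp4 reached at most 56.2, 21.6 and 25.2 on the haploid arrays. The summed signal of the list was 23683 to 24432 in RAH-6 and 19355 to 20550 in RAH-2. Apoe made up a large part of each sum, and Sparc followed the array pattern of the fibroblast markers. So did Pdgfra, which was higher by adjusted p alone and read 64.2, 193 and 93.4 on the RAH-2 arrays. The laminin chains Lama1 and Lamb1 gave -0.02 and -0.03 and did not pass the adjusted p.

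Epithelial genes differed in part. Of 16 tested 0 were called, 7 were higher and 1 lower by limma's adjusted p alone, against 9.76% and 9.21% of all genes, and the median was 0.26. Krt8, a keratin of simple epithelia, read 1100.5, 1108 and 1204 in RAH-6 against 659, 688 and 622 in RAH-2 (log2 fold change 0.78 ± 0.09 (SE), adjusted p = 1.61e-04), whereas its partner Krt18 read 4709, 5226 and 5137 in RAH-6 against 5868, 6810.2 and 7520.1 in RAH-2 and had the opposite sign (log2 fold change -0.42 ± 0.08 (SE), adjusted p = 0.00446). Cldn4, a tight junction claudin, read 1176, 1096 and 1026 in RAH-6 against 575, 709 and 698 in RAH-2 (log2 fold change 0.72 ± 0.09 (SE), adjusted p = 3.22e-04), and Ocln, occludin, read 5018, 4878 and 4887 in RAH-6 against 3126, 3297 and 3019 in RAH-2 (log2 fold change 0.65 ± 0.06 (SE), adjusted p = 5.89e-05). The RAH-6 arrays exceeded the RAH-2 arrays for Krt8, Cldn4 and Ocln and lay below them for Krt18.

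Of 17 genes of naive pluripotency on the array 15 were tested, and Nr0b1 and Fgf4 stayed below 100 on every haploid array, at 35.1 and 87.4 or less. Of the 15, Gbx2 was called lower (6.67%, against 0.193% of all genes). By adjusted p alone 7 (46.7%) were lower and 2 higher, against 9.21% and 9.76% of all genes, and the median was -0.19. Sox2, a core pluripotency factor, read 5559, 5455 and 5327 on the RAH-6 arrays and 8516, 6682 and 8301 on the RAH-2 arrays. The lines did not overlap, with RAH-2 replicate 2 the lowest of its line (log2 fold change -0.51 ± 0.08 (SE), adjusted p = 0.00167). Esrrb, a naive factor downstream of GSK3, read 3025, 3084 and 3272 in RAH-6 against 3872, 3931 and 3904 in RAH-2 (log2 fold change -0.32 ± 0.05 (SE), adjusted p = 7.11e-04), and Klf4 read 3667, 3435 and 3528 in RAH-6 against 4250.2, 4207 and 4319 in RAH-2 (log2 fold change -0.26 ± 0.06 (SE), adjusted p = 0.00689). Jam2, an adhesion molecule, read 2576, 2594 and 2498 in RAH-6 against 1422, 1395 and 1623 in RAH-2 and was higher in RAH-6 without reaching the size limit (log2 fold change 0.78 ± 0.07 (SE), adjusted p = 4.70e-05). The summed signal of the list was 70213 to 70923 in RAH-6 and 76742 to 79575 in RAH-2. No probe set names Zfp42.

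Targets of the Wnt pathway, which GSK3 inhibition activates, had the lowest median of the lists with 5 or more genes tested, at -0.56, or -0.37 with genes below 100 at their bound, close to the -0.35 of the hypoxia list. Of 9 tested 0 were called, and 5 (55.6%) were lower and 0 higher by limma's adjusted p alone, against 9.21% of all genes lower. Lef1, a transcription factor of the pathway, read 2088, 2378 and 2383 in RAH-6 against 4176, 3608 and 3859.7 in RAH-2 (log2 fold change -0.76 ± 0.07 (SE), adjusted p = 2.92e-05). Cdx2, a caudal-type homeobox factor, read 1093, 1029.5 and 1079 in RAH-6 against 2026, 1636 and 1818 in RAH-2 (log2 fold change -0.76 ± 0.08 (SE), adjusted p = 5.89e-05). Axin2, a feedback inhibitor, read 221, 259.5 and 218 in RAH-6 against 408, 331 and 387 in RAH-2 (log2 fold change -0.65 ± 0.17 (SE), adjusted p = 0.0205). Each RAH-2 array exceeded each RAH-6 array for these 3 genes.

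ERK targets lay on both sides of 0. Of 17 tested 0 were called, and 4 were higher and 3 lower by limma's adjusted p alone, against 9.76% and 9.21% of all genes. Dusp6, a phosphatase that acts on ERK, read 1318, 1485 and 1469 in RAH-6 against 666, 1069 and 703 in RAH-2 (log2 fold change 0.83 ± 0.14 (SE), adjusted p = 0.00191), with RAH-2 replicate 2 highest in its line, and Dusp5 read 2982, 3055 and 3110.4 in RAH-6 against 1857, 2257 and 1872 in RAH-2 (log2 fold change 0.61 ± 0.13 (SE), adjusted p = 0.00664). Etv5, another target, gave -0.24 and Myc -0.50. Of 14 genes of the LIF and STAT3 pathway 0 were called and 1, Klf4, passed the adjusted p alone.

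Genes of cholesterol and fatty acid synthesis had small differences, nearly all of 1 sign. Of 24 genes tested 0 were called, 15 (62.5%) were lower by limma's adjusted p alone against 9.21% of all genes, 0 were higher, and the median was -0.29. Msmo1, an enzyme of the late cholesterol pathway, read 2516, 2441 and 2536 in RAH-6 against 3686, 3735 and 3674 in RAH-2 (log2 fold change -0.56 ± 0.05 (SE), adjusted p = 1.79e-05), and Sqle, squalene epoxidase, read 2227, 2329.9 and 2156 in RAH-6 against 3267, 3479 and 3150.3 in RAH-2 (log2 fold change -0.56 ± 0.05 (SE), adjusted p = 5.88e-05). Fasn, fatty acid synthase, read 3855, 4017 and 4007 in RAH-6 against 5912, 5133 and 5001 in RAH-2 (log2 fold change -0.43 ± 0.07 (SE), adjusted p = 0.00129). In all 3 the lines did not overlap.

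Amino acid transporters and several DNA methylation genes also passed the adjusted p without a call. Of 13 transporters 6 (46.2%) were higher, against 9.76% of all genes, and 0 lower. Slc7a7, a transporter of basic amino acids, read 882, 1012 and 982 in RAH-6 against 574, 588 and 574 in RAH-2 (log2 fold change 0.71 ± 0.08 (SE), adjusted p = 1.01e-04). Slc38a3, a glutamine transporter outside that list, was called and read 663, 665 and 665 in RAH-6 against 316, 323 and 289 in RAH-2 (log2 fold change 1.06 ± 0.18 (SE), adjusted p = 0.00202). Of 20 genes tested of a DNA methylation list 6 (30%) were lower, against 9.21% of all genes, and 0 higher. The list also held enzymes that modify histones, such as Ehmt1, Setdb1 and Kdm1b, and Kdm1b was among the 6. Tet1, which oxidises methylcytosine, read 550.4, 605 and 524 in RAH-6 against 1069, 1008 and 1089 in RAH-2 (log2 fold change -0.90 ± 0.11 (SE), adjusted p = 2.00e-04). Tet3 read 481, 468 and 432 in RAH-6 against 851, 720.4 and 905 in RAH-2 (log2 fold change -0.82 ± 0.09 (SE), adjusted p = 8.00e-05). The maintenance methyltransferase Dnmt1 gave -0.25.

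Imprinted genes are of interest because both lines carry paternal chromosomes only. Of 16 maternally expressed genes tested 1 (6.25%), Phlda2, was called higher, against 0.611% of all genes. By adjusted p alone 4 were higher and 2 lower, against 9.76% and 9.21% of all genes, and the median was 0.23. Phlda2, which limits growth of the placenta, read 200, 192 and 204 on the RAH-6 arrays and 43.8, 68.1 and 53.3 on the RAH-2 arrays. It was at least 1.99-fold higher in RAH-6 (adjusted p = 1.99e-04), with DA5-3 at 89.8 to 132. H19, a non-coding RNA, read 3486, 4051 and 3762 in RAH-6 against 2305, 2658 and 2625 in RAH-2, without overlap and below the size limit (log2 fold change 0.57 ± 0.07 (SE), adjusted p = 1.96e-04). Meg3, another non-coding RNA, read 1776, 1483 and 1961 in RAH-6 against 1204, 1521 and 1158 in RAH-2 (log2 fold change 0.42 ± 0.12 (SE), adjusted p = 0.0324), and its second probe set gave -0.06.

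Of 14 paternally expressed genes 0 were called, and 5 (35.7%) were higher and 0 lower by limma's adjusted p alone, against 9.76% of all genes higher. Their median was 0.05, or -0.005 with genes below 100 at their bound. Igf2, a growth factor, read 312, 315 and 292 in RAH-6 against 273, 275 and 157 in RAH-2 and did not pass (log2 fold change 0.40 ± 0.16 (SE), adjusted p = 0.0978). Plagl1, a zinc finger factor, read 788, 1053 and 1009 in RAH-6 against 705, 616 and 273 in RAH-2 (log2 fold change 0.91 ± 0.27 (SE), adjusted p = 0.0323). RAH-2 replicate 3 was far below the other RAH-2 arrays for Plagl1. Slc38a4, an amino acid transporter, read 1433, 1259.5 and 1259 in RAH-6 against 847, 644 and 832 in RAH-2 (log2 fold change 0.76 ± 0.11 (SE), adjusted p = 6.41e-04). Xist, the RNA that coats an inactive X chromosome, read 142, 124 and 103 on the RAH-6 arrays and 66.2, 66.3 and 47.5 on the RAH-2 arrays. It was at least 1.22-fold higher in RAH-6 (adjusted p = 0.0104) and did not reach the size limit. The other probe sets of Xist, below 100 on every haploid array, gave -0.18, 0.28 and -0.43.

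Peptide hormones and growth factors held values on both sides. Adm was the called member of 14 tested, 7.14% against 0.193% of all genes called lower. By adjusted p alone 4 (28.6%) were higher, against 9.76% of all genes, and 1 was lower. The median was 0.19, or 0.003 with genes below 100 at their bound. Nppb, the B-type natriuretic peptide, read 2106, 2186 and 2542 on the RAH-6 arrays and 1156, 1565 and 1334 on the RAH-2 arrays, without overlap (log2 fold change 0.75 ± 0.12 (SE), adjusted p = 0.00106), against 126 to 157 in DA5-3. Spp1, osteopontin, read 1711, 2102 and 1929.9 in RAH-6 against 1045, 1154 and 948 in RAH-2 (log2 fold change 0.86 ± 0.13 (SE), adjusted p = 7.63e-04) and Igfbp3, which binds insulin-like growth factors, 469, 378 and 421 in RAH-6 against 214, 241 and 195 in RAH-2 (log2 fold change 0.91 ± 0.16 (SE), adjusted p = 0.00201). These 3 were higher in RAH-6 by adjusted p alone. Of 12 heat shock genes tested 1 (8.33%) was called higher, against 0.611% of all genes. By adjusted p alone 4 were higher and 1 lower, and the median was -0.07. The called member, the small heat shock protein Cryab, read 150.1, 190.4 and 157 in RAH-6 against 58.2, 117 and 53.6 in RAH-2 (log2 fold change 1.04 ± 0.21 (SE), adjusted p = 0.00603). The call of Cryab was lost without RAH-6 replicate 2 or without RAH-2 replicate 1 or 3.

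The medians of lists of basic cell functions lay near 0. Of 36 lists 27 held no called member, and 17 had a median within 0.1 of 0. For DNA replication the median of 30 genes was -0.10, for mitosis 0.02 over 25 genes, for oxidative phosphorylation 0.07 over 37 genes, for p53 targets 0.04 over 15 genes and for housekeeping genes 0.00 over 12 genes. None of these 5 lists held a called gene. By limma's adjusted p alone 4 DNA replication genes (13.3%) were lower and 0 higher. Of the oxidative phosphorylation genes 6 (16.2%) were higher and 1 lower. Over all genes 9.76% were higher and 9.21% lower. Over chromosomes 1 to 20 and X, medians ran from -0.04 on chromosome 12 to 0.03 on chromosome 8, and the Y chromosome had 1 gene tested. The share of genes called ran from 0% on chromosomes 6, 13 and 18 to 1.83% on chromosome 4, against 0.804% of all genes.

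**Figure D5:**
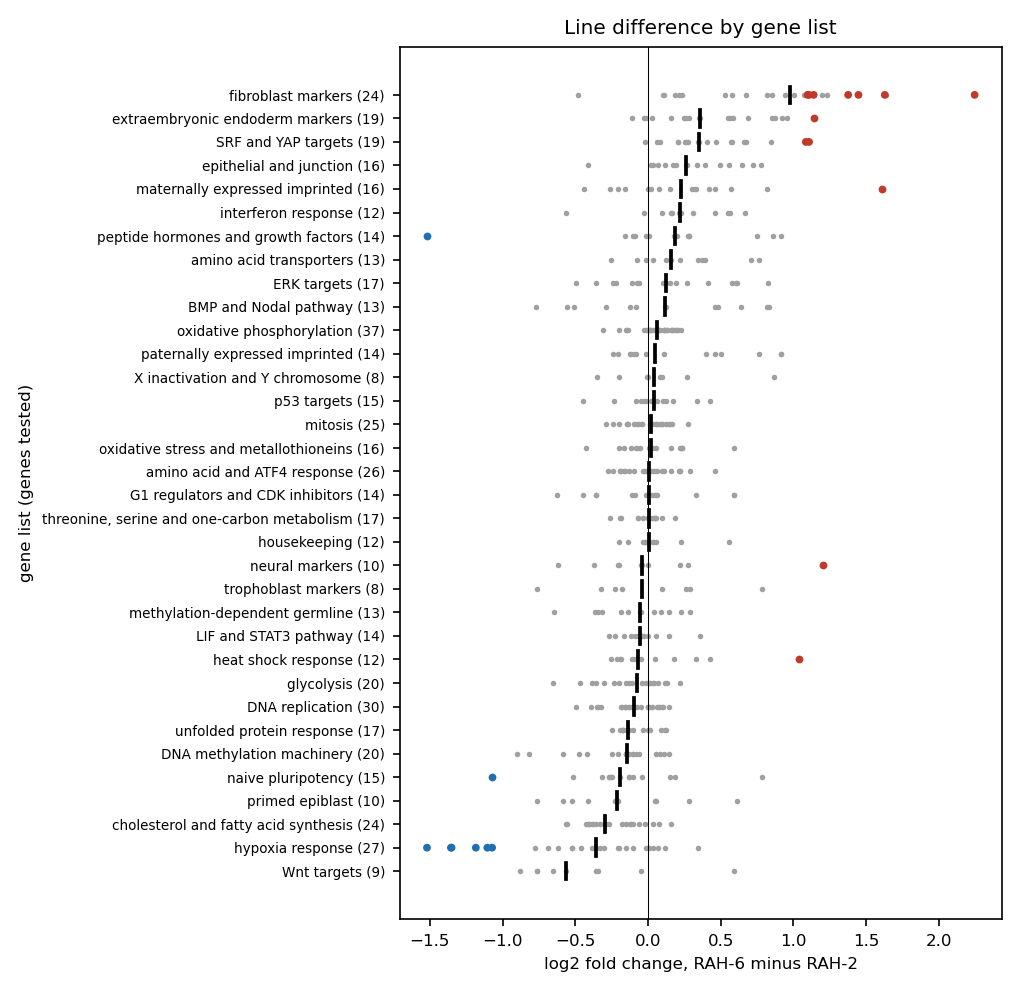
The x axis is the log2 fold change, RAH-6 minus RAH-2, and each row on the y axis is a gene list with 5 or more genes tested, the number in brackets. Grey points are members not called, red and blue points members called higher and lower in RAH-6, and black bars medians of the fitted values, which run from -0.56 for Wnt targets to 0.98 for fibroblast markers (-0.37 and 0.88 with genes below 100 at their bound).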

How the data were processed

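The deposited values were log2 MAS5 signals of 12 Affymetrix arrays, per the labels, and no version of MAS5 is given in the sources used here. A deposited report file whose array names occur in no label was not used. Signals were made linear again, rescaled to a 2% trimmed mean of 500, and log2(signal + 16) was fitted with limma 3.58.1 in R 4.3.3 (lmFit, eBayes with trend) on the 9 ES cell arrays, without a replicate block. Probe sets needed 100 on at least 3 arrays, and the brightest probe set stood for a gene. Of 31099 probe sets 20832 named 1 gene. RefSeq (GRCr8) gave chromosomes and promoter windows. Where all arrays of a line were below 100, the fold is a bound, the geometric mean of the other line over 100. Named genes were the 12 largest rises and falls among called genes without overlap, up to 5 called members of a list, and 12 looked-up genes, and any others were chosen after their values were seen or taken from the lists described. The comparison and the 36 lists (834 entries, 707 on the array) were chosen with earlier results of these data known. No list was tested. The fit was tested on simulated data. Alternatives changed offset, scaling, filter, arrays, probe sets, spread model, block and replicates.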

Additional observations from a re-analysis of the deposited data

How the results depend on the processing

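The number of genes called higher in RAH-6, 57, became 17 with an offset of 64, 87 without the filter, 35 with a filter at 200, 910 without a size limit and 339 with a limit of 0.5, and 36 to 110 when 1 array was left out. The number called lower, 18, became 9 with an offset of 64, 859 without a size limit and 164 with a limit of 0.5, and 11 to 18 when 1 array was left out. Fibroblast markers called higher, 7, became 4 without the filter, 4 with the 6 haploid arrays only and 2 without the variance trend, and 1 to 15 when 1 array was left out. Hypoxia genes called lower, 6, numbered 5 or 6 in all 19 settings that kept the size limit. RAH-6 was higher for 76.0% of called genes, 65.4% with an offset of 64 and 88.0% without RAH-2 replicate 2. Of probe sets without a gene name 10 were higher, with 2 at an offset of 64, 16 without the filter, 6 with a filter at 200, 4 without the trend and 4 to 23 when 1 array was left out, and 9 were lower, with 5 at an offset of 64, 18 at an offset of 1, 4 with a filter at 200, 5 without the trend and 6 to 12 when 1 array was left out. The causes were not tested, beyond the number of genes or arrays that a setting itself removes. Whether replicate numbers pair the arrays is not given in the labels, and 3 arrays a line cannot settle it. Correlations of deviations were 0.04, 0.003 and -0.14 for same-numbered arrays of the lines and -0.12 to 0.12 for differently numbered ones. With the replicate block 59 genes were higher and 18 lower. Of the 75 called genes 14 were called in all 19 settings that kept the size limit and 26 in all 9 that left out 1 array, where a gene that no longer reached the filter counts as not called. Of 708 values of named genes under alternatives 651 kept direction and call, 55 lost the call, 2 gained it (Xist with an offset of 1, where RAH-2 was below 100, and Col1a1) and 0 turned direction. A named gene that did not reach the filter under a setting has no value there and is not among the 55. Signals below 100 limit what dim genes can show, and a comparison of 1 line with 1 other line limits what can be said of haploid cells in general.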

Other observations

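Probe sets that name no gene were tested apart with limma in the same 9 arrays, and of 3141 tested 10 were called higher and 9 lower in RAH-6. The probe set 1389008_at had the lowest adjusted p of these and read 293, 335 and 346 in RAH-6 against 1236, 1328 and 1251 in RAH-2 (log2 fold change -1.92, adjusted p = 1.19e-08). The probe set 1392948_at read 641, 699 and 719 in RAH-6 against 1410.3, 1433 and 1511 in RAH-2 (log2 fold change -1.06). In both, every RAH-2 array lay above every RAH-6 array. Among higher ones, 1384939_at read 286, 247 and 232 in RAH-6 against 94.9, 86.9 and 128 in RAH-2 (log2 fold change 1.20).

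Inhba, the activin subunit, followed the array pattern of the fibroblast markers. It read 494, 495 and 482 in RAH-6 against 181, 460.5 and 228 in RAH-2 and was not called (log2 fold change 0.83), whereas without RAH-2 replicate 2 it was called with a log2 fold change of 1.21. The chemokine Ccl2 read 160, 183 and 137 in RAH-6 against 44.9, 199 and 41.3 in RAH-2 and was not called (log2 fold change 0.94, adjusted p = 0.123 by limma). Without RAH-2 replicate 2 it was called, at least 1.59-fold higher in RAH-6, since the remaining RAH-2 arrays were below 100. Inhba and Ccl2 were picked after their values were seen. RAH-2 replicate 2 was their highest RAH-2 array, so leaving it out widens the difference by itself, and these calls add no support.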
